A study of Drosophila melanogaster with 3 samples.

Results

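ChIP-seq peaks of GAGA factor in pericentric heterochromatin and on chromosome 4 were described in Drosophila melanogaster. The chromatin came from whole embryos of 0 to 24 h, with males and females pooled. All samples were of the strain Trl-MiMIC-GFP, in which an intronic GFP exon fuses GFP to the protein of Trithorax-like (Trl), which is GAGA factor. Per the labels, the fusion was recovered with an antibody against GFP, although the antibody field itself reads Trl. The 3 biological replicates formed a single group, so every comparison is between parts of the genome. The SD over the 3 replicates shows how far repeated lists differ. It does not hold the counting error from the few peaks of a part. Whole embryos mix all cell types and stages of that day, and chromatin of a rare cell type cannot be told apart from weak binding in all of them. An untagged control was not analysed here.

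Members were the peaks of the authors' pooled list on the dm6 build whose summit lay on chromosome 4, beyond 22 Mb on 2L, 22.9 Mb on 3L and 22.6 Mb on X, or before 4.20 Mb on 3R. That rule uses position only. It gave 227 of 30000 pooled peaks, of which 104 lay on chromosome 4 and 123 in the pericentric ends of 4 arms (40 on 2L, 33 on 3L, 16 on 3R and 34 on X). The pooled list holds peaks and background, and the optimal peaks are the 4900 strongest, which passed the authors' threshold on reproducibility. Of the 227 members, 22 were optimal, 15 on chromosome 4, 5 on 2L and 2 on X. The last of them ranked 4468 with a signal of 92.5, and the next member ranked 5142 with a signal of 82.8. Over all pooled peaks, 16.3% were optimal. Peaks of the same 4 arms outside these ends, 24173 in number, are called the rest of the arms.

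Pericentric heterochromatin is the repeat-rich chromatin that flanks the centromeres. It is marked by methylated lysine 9 of histone H3 and its reader HP1, it is replete with transposable elements and satellites, and it also holds essential genes that are transcribed there. Chromosome 4, the dot chromosome, is coated along most of its length with HP1 and its own binding protein POF, and its genes are nevertheless active. GAGA factor binds GA-rich DNA through a single zinc finger, keeps promoters open, and is known from cytology to sit on GA-rich satellites of mitotic chromosomes.

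The DNA under the strongest members is shown first, since the motif and promoter counts below turn on it. The sequences are from the reference genome of the Release 6 assembly (dm6), plus strand. GAGAG and its other strand CTCTC, and the palindrome TATCGATA, which is the DREF site, are in capitals. The first set holds 5 leading optimal peaks as 101 bases centred on the summit, all on chromosome 4. Peaks whose 101 bases reach a UTR were left out of it, among them the tio promoter of 2L, and tio and the peak upstream of zfh2 are in the next set. The 5 windows hold no GAGAG, whereas that of tio does.
Intergenic, beyond lgs, chr4:424769-424869: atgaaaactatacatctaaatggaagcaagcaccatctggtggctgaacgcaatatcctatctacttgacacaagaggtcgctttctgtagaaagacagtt
Upstream of RpS3A, chr4:67228-67328: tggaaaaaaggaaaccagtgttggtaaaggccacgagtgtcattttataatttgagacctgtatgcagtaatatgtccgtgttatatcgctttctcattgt
Intron of gw, chr4:660113-660213: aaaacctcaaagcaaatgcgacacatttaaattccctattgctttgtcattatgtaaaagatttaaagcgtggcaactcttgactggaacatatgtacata
Upstream of fuss, chr4:982940-983040: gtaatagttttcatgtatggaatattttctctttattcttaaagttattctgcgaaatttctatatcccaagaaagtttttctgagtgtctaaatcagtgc
Upstream of Asator, chr4:489488-489588: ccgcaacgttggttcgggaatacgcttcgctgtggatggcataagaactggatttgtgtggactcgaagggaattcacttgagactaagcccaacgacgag

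The second set holds the optimal members with GAGAG or TATCGATA near the summit, as up to 201 bases that stop where a UTR starts. It was chosen after the values were seen. The tio window holds 4 GAGAG sites and the zfh2 promoter window holds 5.
Promoter of tio, chr2L:22019080-22019207: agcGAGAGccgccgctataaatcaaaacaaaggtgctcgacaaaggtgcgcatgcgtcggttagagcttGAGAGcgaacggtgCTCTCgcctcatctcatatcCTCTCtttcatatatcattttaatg
Promoter of zfh2, chr4:501644-501809: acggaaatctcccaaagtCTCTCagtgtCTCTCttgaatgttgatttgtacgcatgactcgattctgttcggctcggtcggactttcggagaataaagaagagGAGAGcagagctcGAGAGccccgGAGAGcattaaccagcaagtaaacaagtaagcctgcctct
Upstream of zfh2, chr4:497810-498010: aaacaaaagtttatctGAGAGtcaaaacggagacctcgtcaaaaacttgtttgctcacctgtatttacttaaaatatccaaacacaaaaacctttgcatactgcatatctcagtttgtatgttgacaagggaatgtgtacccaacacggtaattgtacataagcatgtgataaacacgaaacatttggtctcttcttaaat
Intron of Sox102F, chr4:807629-807829: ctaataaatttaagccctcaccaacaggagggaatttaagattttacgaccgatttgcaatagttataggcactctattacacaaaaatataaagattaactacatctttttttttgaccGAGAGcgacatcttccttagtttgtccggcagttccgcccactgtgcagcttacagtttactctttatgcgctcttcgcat
Upstream of PlexA, chr4:1027156-1027356: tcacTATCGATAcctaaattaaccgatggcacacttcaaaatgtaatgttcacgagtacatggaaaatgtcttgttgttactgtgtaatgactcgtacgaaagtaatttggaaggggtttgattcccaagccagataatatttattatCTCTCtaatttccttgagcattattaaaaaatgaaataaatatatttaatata
Upstream of myo, chr4:696766-696966: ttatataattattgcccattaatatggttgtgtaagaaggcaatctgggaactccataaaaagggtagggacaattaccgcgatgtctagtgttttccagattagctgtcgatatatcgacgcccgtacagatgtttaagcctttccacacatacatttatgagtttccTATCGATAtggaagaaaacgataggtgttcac

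The third set gives 30 bases around the motif of the members that lie in a transcript, where both peaks at the end of tio hold the longer GAGAGAG.
End of tio, first peak, chr2L:22024367-22024396: ttctcactgtCTCTCTCtttgccgctgtac
End of tio, second peak, chr2L:22024697-22024726: ggatggtggcGAGAGAGacaggcatagcac
CG3651, chr2L:22121870-22121899: gaatggattttcGAGAGctagataaattaa

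GAGA factor peaks were sparse in pericentric heterochromatin. The pooled list had 10.5 summits per assembled Mb over 11.7 Mb there, against 254 per Mb over the 95.3 Mb of the rest of the arms, which is 24.2-fold fewer. The replicate lists had 11.5, 15.2 and 17.9 summits per Mb in replicates 1, 2 and 3, against 252, 253 and 252 in the rest of the arms. The deficit was thus 21.9-fold, 16.7-fold and 14.1-fold, and the replicates did not overlap with the rest of the arms. On the log2 scale the difference was -4.11 ± 0.32 (SD, n = 3), below 0 in 3 of 3 replicates (exact two-sided sign-flip permutation test, p = 0.25, the smallest that 3 replicates can give). Optimal peaks were 68.9-fold fewer per Mb, at 0.597 against 41.1.

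Chromosome 4 lay between these levels. It had 78.1 pooled summits per Mb over 1.33 Mb, 3.25-fold fewer than the rest of the arms. The replicate lists had 98.4, 131 and 128 summits per Mb, each above the pooled value and each below the rest of the arms. The log2 difference was -1.09 ± 0.23 (SD, n = 3; exact sign-flip permutation test, p = 0.25). It was -1.36 in replicate 1, -0.945 in replicate 2 and -0.973 in replicate 3, against -1.70 in the pooled list. Optimal peaks were 3.65-fold fewer, at 11.3 per Mb.

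The soft-masked share was lower where density was higher, whereas cover by transposable elements was highest on chromosome 4. Soft-masked bases made up 40.7% of the pericentric sequence, 28.1% of chromosome 4 and 17.5% of the rest of the arms, and annotated transposable elements covered 15.1%, 25.1% and 4.07%. Counted over unmasked bases and unmasked summits, the pooled log2 difference was -4.06 for pericentric heterochromatin, compared with -4.60 over all bases, and -1.49 for chromosome 4, compared with -1.70. How reads from repeats were placed is not given in the sources used here, and the part of unplaced reads in these densities was not tested.

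**Figure D1:**
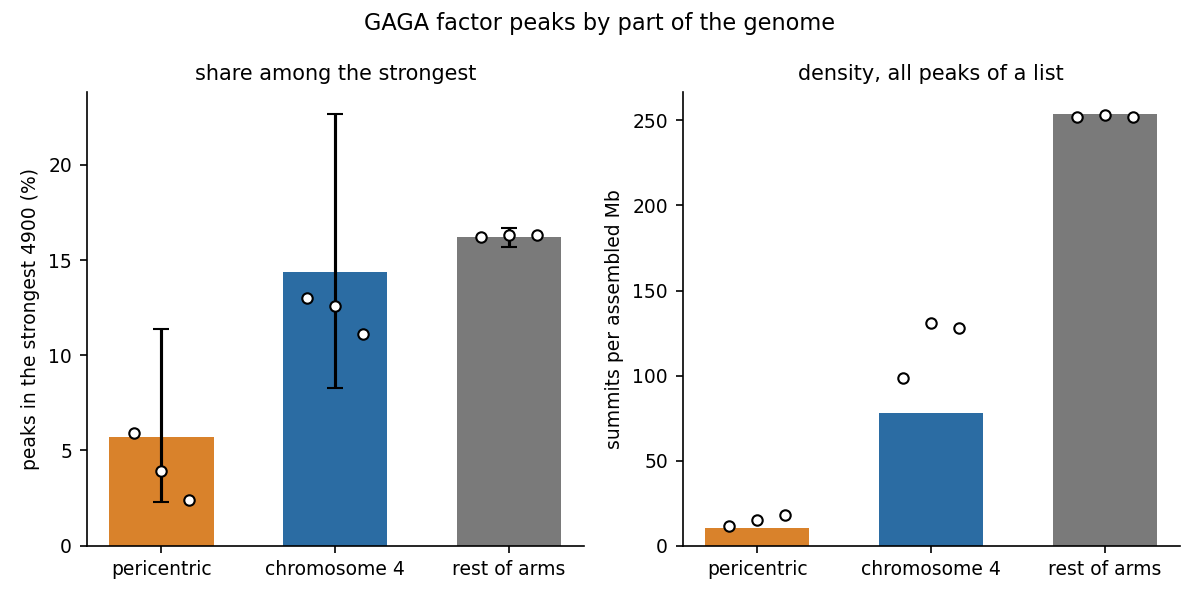
Left, share of peaks among the strongest 4900 of a list, in percent. Right, summits per assembled Mb over all peaks of a list. Bars give the pooled list, with exact 95% binomial intervals on the left, and points the 3 replicate lists. Pericentric peaks sit lowest in both panels, at 5.69% and 10.5 per Mb, and the rest of the arms highest, at 16.2% and 254 per Mb.

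The peaks that were called in pericentric heterochromatin also ranked low. Of the 123 members there, 7 were optimal, a share of 5.69% (exact 95% binomial interval 2.32% to 11.4%), against 16.2% in the rest of the arms (3917 of 24173). The strongest 4900 peaks of each replicate's own list held 8 of 135, 7 of 178 and 5 of 210 pericentric peaks, or 5.93%, 3.93% and 2.38%. The rest of the arms gave 16.2%, 16.3% and 16.3%. The difference was -12.2 ± 1.86 percentage points (SD, n = 3; lower in 3 of 3 replicates, exact sign-flip permutation test, p = 0.25). Pericentric peaks made up 0.143% of the strongest 4900 pooled peaks and 0.580% of ranks 20001 to 30000. Between these the share was level, at 0.392% of ranks 4901 to 10000 and 0.380% of ranks 10001 to 20000.

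On chromosome 4 the share was close to that of the rest of the arms. It was 14.4% (15 of 104, interval 8.30% to 22.7%), and the interval contains 16.2%. In the replicate lists it was 13% (17 of 131), 12.6% (22 of 175) and 11.1% (19 of 171), a difference of -4.03 ± 1.06 percentage points (SD, n = 3; exact sign-flip permutation test, p = 0.25). The direction turned when only the stronger 2450 optimal peaks were counted, at 1.49 percentage points, and in the pooled lists on dm3, at 2.62. Chromosome 4 made up 0.306% of the strongest 4900 pooled peaks and 0.360% of ranks 20001 to 30000.

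The pericentric peaks crowded at the outer edge. Of the 123, 78 (63.4%) lay within 0.25 Mb of the edge and 18 (14.6%) lay more than 1.00 Mb from it. All 7 optimal peaks lay within 0.25 Mb, the deepest 121956 bp inside the edge on 2L and 237622 bp inside on X. Farther in, 45 peaks remained over 10.9 Mb, which is 4.14 per Mb. In the replicate lists 54 of 135, 77 of 178 and 108 of 210 pericentric peaks lay farther in, and 0 of the 8, 7 and 5 that were among the strongest 4900.

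The fall across the edge differed between the arms, as read from the pooled list without a test. On 2L the density was 162 per Mb in the 0.5 Mb before the edge, 124 per Mb in the 0.25 Mb after it and 4.0 per Mb in the next 0.25 Mb. On 3L these values were 192, 76.0 and 4.0, and on 3R 222, 44.0 and 8.0. The deepest 2.20 Mb of 3R held 1 peak and the deepest 3.21 Mb of 3L held 8. X was sparse before its edge, with 5 peaks from 1 to 0.5 Mb outside and 60.0 per Mb in the last 0.5 Mb. Its peaks continued at 68.0 and 64.0 per Mb over the next 0.5 Mb, and 1 peak lay farther in.

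**Figure D2:**
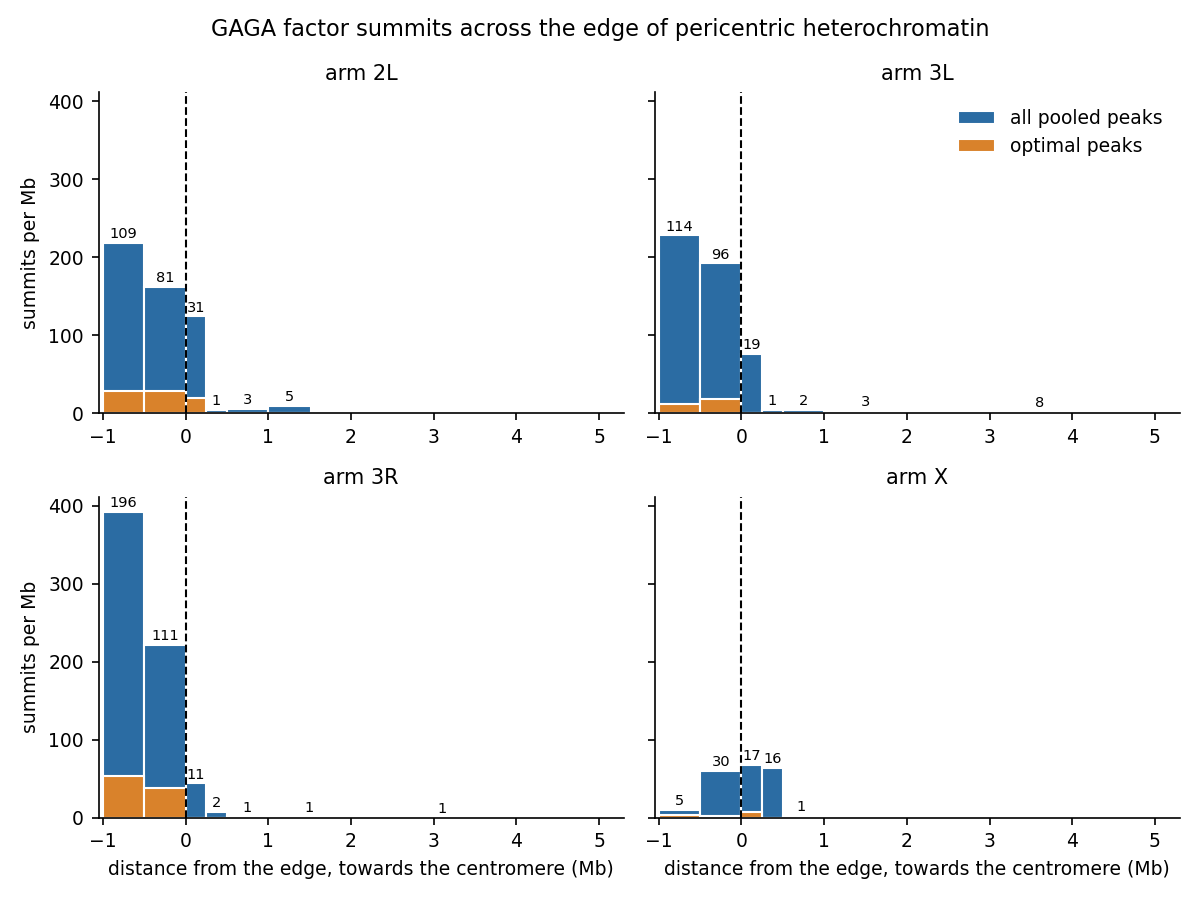
Summits per Mb against the distance in Mb from the edge of pericentric heterochromatin on 4 arms, with negative distances on the side away from the centromere. Blue bars give all pooled peaks with their number above, orange bars the optimal peaks among them. Optimal peaks stop within 0.25 Mb of the edge, and 3L and 3R have none beyond it.

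The level depended on the place of the edge. With the edges 0.5 Mb nearer the centromere, 25 pooled peaks and 0 optimal peaks stayed inside, 2.57 per Mb. With the edges 0.5 Mb farther out, 441 pooled and 50 optimal peaks (11.3%) were inside. The peaks nearest to the edges were weak on both sides except on 2L. There the tio promoter peak, rank 800, lay 19179 bp inside and the nearest outside peak ranked 27155, 2557 bp outside. On 3L the nearest ranked 28846 inside and 23289 outside, on 3R 12427 and 21502, and on X 23711 and 22331.

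Chromosome 4 carried the strongest members, and these lay away from start sites. The strongest was an intergenic peak with its summit at 424819, 19092 bp from the nearest protein-coding start site, that of lgs, which encodes Legless, a coactivator of Wnt signalling. A long noncoding RNA, CR43437, starts 1248 bp from it. It ranked 133 of 30000 in the pooled list, and 114, 132 and 192 in replicates 1, 2 and 3. The next lay 3900 bp upstream of zfh2, which encodes a zinc finger homeodomain protein, and ranked 194, with 283, 143 and 194 in the replicates. The peak at 1113354, in the 3′ UTR of Cals, which encodes Calsyntenin, ranked 323, with 381, 303 and 333. The 3 kept this high rank in every replicate.

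Peaks near RpS3A, gw and fuss followed. The peak 71 bp upstream of RpS3A, a protein of the small ribosomal subunit, ranked 809, with 775, 1213 and 669 in the replicates. The peak of gw, which encodes GW182 of microRNA silencing, lay in an intron 180 bp from a start site and ranked 813, with 1021, 772 and 634. The peak 4501 bp upstream of fuss, a homologue of the Ski and Sno corepressors, ranked 885, with 773, 668 and 1501. No replicate placed these 3 below the threshold.

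The kinase gene Asator had peaks 544 bp and 623 bp from its start sites, at ranks 1081 and 1822. Their replicate ranks were 930, 1495 and 1369, and 2791, 1852 and 1753. The zfh2 promoter, 66 bp upstream of its start, ranked 1823, with 3128, 2967 and 1186, and Sox102F, a SoxD transcription factor, had an intron peak 382 bp from a start site at rank 2054, with 1942, 1349 and 3411. Peaks upstream of PlexA, a semaphorin receptor, and of myo, a TGF-beta family ligand, ranked 3186 and 3197. PlexA ranked 6161 in replicate 1 and 3092 and 2070 in the others. The 2 peaks beyond dati, which encodes a zinc finger protein of the nervous system, lay 8896 bp and 11398 bp from its start at ranks 3251 and 2849.

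The weakest optimal peak of chromosome 4 was that of ATPsynbeta, a subunit of the mitochondrial ATP synthase. Its summit lay 6 bp from the start site and 113 bp from that of CG11076, and it ranked 3330, with 1823, 8155 and 4581 in the replicates. It and PlexA were outside the strongest 4900 of 1 replicate each, and 13 of the 15 were inside in all 3. The 15 were spaced unevenly along the chromosome, and clustering was not tested. From 486656 to 501744 there were 4 between Asator and zfh2, at gaps of 2882, 8372 and 3834 bp, and a gap of 337223 bp separated RpS3A from dati. The zfh2 gene also had a weaker intron peak, GAGAGAG-bearing, at rank 5331.

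**Figure D3:**
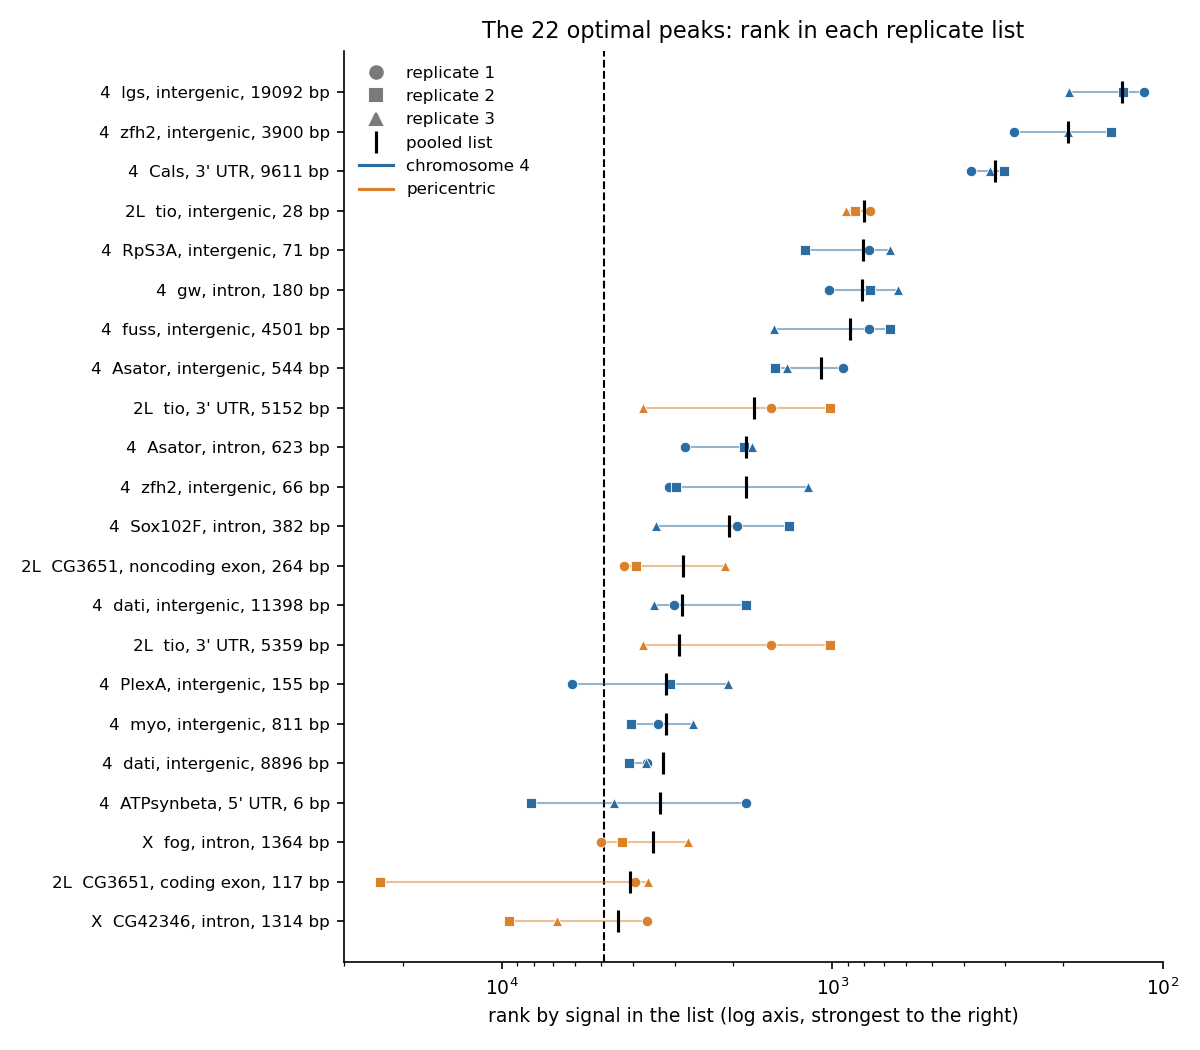
Rank by signal of the 22 optimal members in the pooled list (bar) and in replicates 1, 2 and 3 (circle, square and triangle), on a log axis with the strongest to the right. Labels give the arm, the nearest protein-coding gene, the summit's position and the distance to the start site. Of the 22, 17 are among the strongest 4900 (dashed line) in all 3 replicates, and the CG3651 coding exon peak has the widest spread.

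Of the 7 optimal peaks of pericentric heterochromatin, 5 lay on 2L at 2 genes. The strongest was the promoter of tio, or tiptop, a zinc finger factor and paralogue of teashirt. Its summit lay 28 bp upstream of the start, at rank 800, with 768, 853 and 911 in the replicates. The tio gene also had 2 peaks in its 3′ UTR, at ranks 1730 and 2906. Their summits were 207 bp apart and they overlapped the same replicate peaks, of ranks 1530, 1018 and 3742, so they are not separate measurements. A coding exon peak of tio ranked 9741.

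The other 2L gene was CG3651. A peak in the noncoding RNA CR46480, 264 bp from the CG3651 start, ranked 2841, with 4288, 3931 and 2113 in the replicates. The second lay in a coding exon 117 bp from a start site at rank 4110, and its replicate ranks were 3947, 23458 and 3615. As percentiles of a replicate list these are 86.8, 21.8 and 88.0, and replicate 2 stood apart. The 2 optimal peaks of X lay in introns of fog, which encodes the secreted ligand Folded gastrulation, and of the overlapping gene CG42346. The stronger ranked 3481, with 5021, 4324 and 2744 in the replicates, and the weaker 4468, with 3633, 9526 and 6802. Of the 7, 4 were within the strongest 4900 of all 3 replicates.

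No peak of 3L or 3R was optimal. The strongest on 3L lay 142 bp upstream of Mes2, with rank 5597 and replicate ranks of 6306, 5705 and 7138, then came peaks at CG12768 (rank 5784, 53 bp upstream) and in the 5′ UTR of nrm, or neuromusculin (rank 6279). These 3 lay within 0.25 Mb of the edge. On 3R the strongest were at CG12581 (rank 6168, 2 bp from the start), near Dsk (rank 8649) and at CG41099 (rank 9902). The CG12581 peak ranked 4227 in replicate 1 and 8221 and 12301 in the others. The strongest member of X below the threshold lay 36 bp upstream of Rab21, a small GTPase of endosomes, at rank 7416. In the replicate lists, 4 of the 116 pericentric members below the threshold and 10 of the 89 of chromosome 4 overlapped a peak of the strongest 4900 in at least 1 replicate. By replicate these were 2.59%, 1.72% and 0.862%, and 3.37%, 7.87% and 0%. The rest of the arms had 6.42%, 6.58% and 6.51%. The tio member of rank 24506 counts through the replicate peaks of the tio promoter. The Mitf members of ranks 7957 and 13254 share the replicate 1 peak of rank 4499.

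Many peaks of heterochromatin lay at start sites, the weak ones included. Of all 123 pericentric members, 51 (41.5%, exact 95% interval 32.7% to 50.7%) had their summit no more than 500 bp from a start site, and of 104 on chromosome 4, 39 (37.5%, 28.2% to 47.5%). In the rest of the arms the share was 31.9%. Such windows are rare in pericentric sequence, where 1.91% of tiled windows of 201 bp have their centre that near to a start site, against 10.9% on chromosome 4 and 14.8% in the rest of the arms. Among peaks below the threshold, 20 of 116 (17.2%) pericentric summits lay in a 5′ UTR, against 5 of 89 (5.62%) on chromosome 4 and 8.10% in the rest of the arms.

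Among the optimal peaks the promoter share was 4 of 7 (57.1%, 18.4% to 90.1%) in pericentric heterochromatin. It was 6 of 15 (40.0%, 16.3% to 67.7%) on chromosome 4 and 56.1% in the rest of the arms. The pericentric 4 include the weaker X peak, 130 bp from the start of the noncoding gene mir-2491. Its nearest protein-coding start lay 1314 bp away. On chromosome 4, 10 of 15 (66.7%) optimal summits were intergenic, against 39.2%. With each replicate's strongest 4900, the promoter share of chromosome 4 was 41.2%, 45.5% and 52.6%, against 56.6%, 55.2% and 55.5%. The difference was -9.33 ± 6.25 percentage points (SD, n = 3; lower in 3 of 3 replicates, exact sign-flip permutation test, p = 0.25). The pooled difference of -16.1 points shrank to -5.36 with a 1000 bp window, where the replicates gave p = 1.00 by the same exact test. For pericentric heterochromatin the replicates gave 75.0%, 57.1% and 60.0% of 8, 7 and 5 peaks, a difference of 8.30 ± 8.88 points. In the pooled list it was 1.00 point, and the direction turned with a 100 bp or a 1000 bp window, at -1.66 and -8.21 points.

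**Figure D4:**
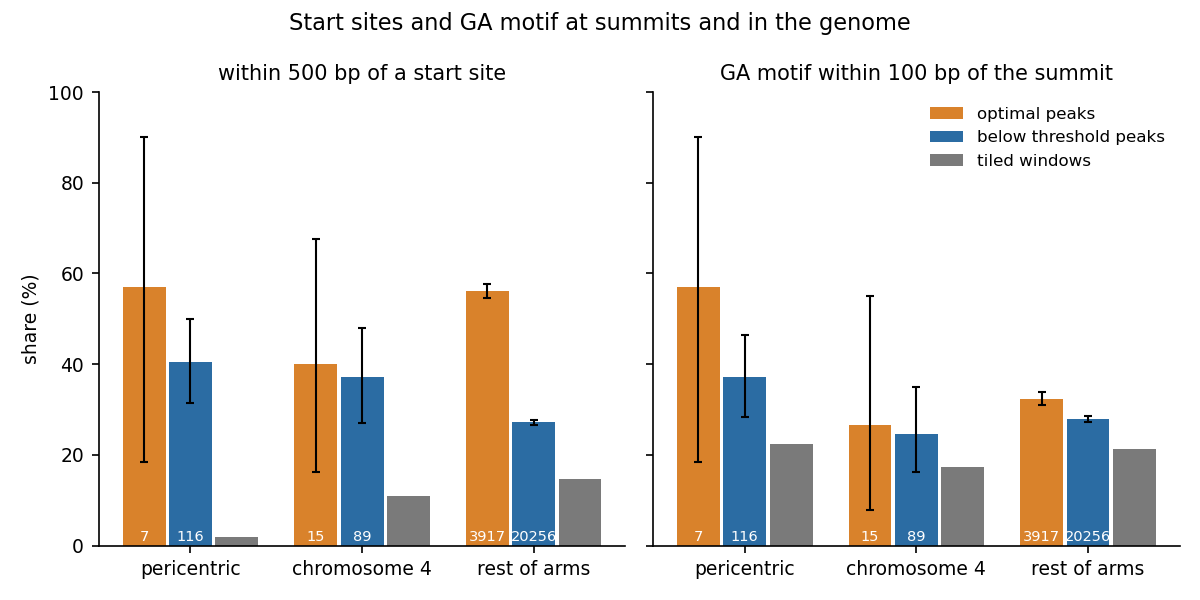
Share in percent of summits at most 500 bp from a start site (left) and with a GA motif within 100 bp (right), for optimal peaks, peaks below the threshold and tiled windows of the same part of the genome. Numbers in the bars count peaks, and lines are exact 95% binomial intervals. Pericentric peaks below the threshold hold the motif in 37.1% and tiled windows in 22.5%.

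Motif counts differed between the parts. GAGAG on either strand within 100 bp of the summit was found at 47 of 123 pericentric members (38.2%, 29.6% to 47.4%), at 26 of 104 on chromosome 4 (25%, 17.0% to 34.4%) and at 28.6% in the rest of the arms. Tiled windows of the same 201 bp held it in 22.5%, 17.4% and 21.3%. Among optimal peaks the counts were 4 of 7 (57.1%, 18.4% to 90.1%), 4 of 15 (26.7%, 7.79% to 55.1%) and 32.4%. Both intervals contain 32.4%. The pericentric 4 are both tio 3′ UTR peaks, the tio promoter and the CG3651 coding exon peak. Both tio 3′ UTR peaks overlap the same replicate peaks and are not separate measurements, yet the interval counts each. The replicates' strongest 4900 held GAGAG at 4 of 8, 4 of 7 and 3 of 5 pericentric peaks. That share was above that of the rest of the arms by 17.1, 25.7 and 26.8 percentage points (23.2 ± 5.33, SD, n = 3; exact sign-flip permutation test, p = 0.25). With the edges 0.5 Mb farther out, which brings in 50 optimal peaks in place of 7, the pooled difference fell from 24.7 to 9.68 points. For chromosome 4 the difference was -6.80 ± 2.62 points.

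The leading windows of chromosome 4 printed above lack GAGAG in their 101 bases. Its 4 optimal peaks with GAGAG were those upstream of zfh2, at the zfh2 promoter, in Sox102F and at PlexA. Of its 6 promoter peaks 3 held GAGAG, so that among promoter summits the difference from the rest of the arms was 16.5 percentage points, and among the other summits -19.9. The DREF site TATCGATA was within 100 bp of 2 of 15 optimal summits (13.3%, 1.66% to 40.5%), those of PlexA and myo, against 4.42% in the rest of the arms and 1.98% of tiled windows of chromosome 4. A match is a description of these letters and not of binding by that factor.

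Satellite-type sequence was found at few summits. AAGAG is the unit of a GA-rich pericentric satellite, and 2 joined units, AAGAGAAGAG, were found at 1 of 123 pericentric members, in an intron of Snap25 at rank 28689, and at 1 of 104 on chromosome 4, in an intron of zfh2 at rank 13469. These shares are 0.813% and 0.962%, against 0.0869% (21 of 24173) in the rest of the arms, and tiled windows held it in 0.0840%, 0.0302% and 0.0827%. With 1 peak each, the order of these shares was not tested. None of the 22 optimal summits had it. Assembled arms hold little satellite, and unassembled satellites were not analysed here. None of the 22 lay in an annotated transposable element.

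Below the threshold, 13 of 89 summits of chromosome 4 (14.6%, 8.01% to 23.7%) and 7 of 116 pericentric summits (6.03%, 2.46% to 12%) lay in a transposable element, against 0.227% in the rest of the arms. These elements cover 25.1%, 15.1% and 4.07% of those sequences, so each share of summits was below the coverage. On chromosome 4, 8 of the 13 lay in INE-1 copies, 1 of them also annotated as 1360, and INE-1 is a short abundant element of heterochromatin. The best ranked of all lay in an INE-1 copy 1793 bp upstream of fuss, at rank 5994, with 6269, 5978 and 6566 in the replicates, and a mariner2 copy near Ekar followed at rank 6153, with 5964, 4488 and 15121. These elements and genes were picked out after their values were seen.

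Repeat-masked bases within 100 bp averaged 7.68% at the optimal pericentric summits, 15.6% at those of chromosome 4 and 17.7% in the rest of the arms. With each replicate's strongest 4900 the pericentric difference was -6.98 ± 1.61 percentage points (SD, n = 3; exact sign-flip permutation test, p = 0.25). Over all pooled summits instead of the optimal ones the pooled difference shrank from -10.0 to -1.95. The replicates then had no common direction (exact sign-flip permutation test, p = 0.75). With the strongest 4900, the chromosome 4 difference was -3.18, 1.06 and -2.45 and had no common direction (exact sign-flip permutation test, p = 0.5). GC content at optimal summits averaged 44.1%, 36.9% and 39.4%, against 39.9%, 35.3% and 42.4% of tiled windows.

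Few heterochromatic genes had a strong promoter peak. Over the protein-coding genes of these 5 arms, 2554 of 11093 (23.0%) had a start site with an optimal summit at most 500 bp away, and are called bound. In pericentric heterochromatin 2 of 116 genes were bound (1.72%, 0.209% to 6.09%), tio and CG3651. On chromosome 4 it was 7 of 80 (8.75%, 3.59% to 17.2%), namely zfh2, ATPsynbeta, RpS3A, PlexA, CG11076, Sox102F and gw, and ATPsynbeta and CG11076 share a peak. In the rest of the arms it was 23.4%. The replicates' strongest 4900 gave differences of -19.4, -19.5 and -21.3 percentage points for pericentric genes (-20.1 ± 1.06, SD, n = 3) and -14.1, -10.5 and -9.27 for chromosome 4 (-11.3 ± 2.50), with p = 0.25 for each by the exact sign-flip permutation test.

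With any pooled summit, background calls included, each share was higher, and that of the rest of the arms was still the highest. They were 35 of 116 (30.2%, 22% to 39.4%) for pericentric genes, 28 of 80 (35.0%, 24.7% to 46.5%) on chromosome 4 and 54.7% in the rest of the arms. By arm, bound pericentric genes were 2 of 37 on 2L, 0 of 42 on 3L, 0 of 14 on 3R and 0 of 23 on X.

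Of 19 well-known genes of pericentric heterochromatin, 0 were bound, and 8 had a weaker pooled summit at a start site. Over all 116 pericentric genes 1.72% were bound, so the count of 0 is not particular to these genes. The strongest was RpL5, a protein of the large ribosomal subunit, at rank 5344, 14 bp from the start, with 5211, 6063 and 14946 in the replicates. RpL15, of the same subunit, ranked 10023, and light (lt), a vacuolar sorting protein, 10081. Suppressor of forked, su(f), which acts in mRNA 3′ end formation, ranked 12062, and Gfat1, an enzyme of hexosamine synthesis, 12754. None of these 5 was optimal. AGO3, a Piwi-clade protein of the piRNA pathway, Cht10, a chitinase, and cta, a G protein alpha subunit that acts in gastrulation, had no pooled summit that near to a start site.

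The counts of the following lists stand beside 8.75% (7 of 80) bound over all genes of chromosome 4 and 23.0% over all arms, and with so few genes none is read as particular to its list. Of 15 transcription genes of chromosome 4, 2 were bound, zfh2 and Sox102F, and 8 had some pooled summit at a start site. The next strongest were ci, the effector of Hedgehog signalling (rank 6349), lgs (rank 7254) and Mitf (rank 7957). At ci the replicate ranks were 10302, 3676 and 17390, so only replicate 2 had it among its strongest 4900. The start sites of ey, a Pax6 factor of eye development, had at best rank 12315, and those of dati 23905. The optimal peak of rank 3197, named above for myo, also lay upstream of ey. Its summit at 696866 was between the starts of myo (696055) and ey (697689). It was more than 500 bp from either start, so ey did not count as bound through it.

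Of 16 signalling and neuronal genes, 1 was bound, PlexA, and 6 had some pooled summit at a start site. Behind it, within 500 bp of a start site, came Asator (rank 5989) and mav, a TGF-beta family ligand (rank 7333). Then came Cadps, a factor of dense-core vesicle release (rank 8238), and the giant muscle protein gene bt (rank 10968). The optimal peaks of Asator, ranks 1081 and 1822, lay 544 and 623 bp from its start sites. That of myo, rank 3197, lay 811 bp from its start, so neither gene counted as bound. Actbeta, an activin-type ligand, had no pooled summit at a start site. Of 11 housekeeping genes, 3 were bound, RpS3A, gw and ATPsynbeta, and 6 had some pooled summit. Arl4, a small GTPase, ranked 5142 and eIF4G1, a translation initiation factor, 14052. Ank, an ankyrin, had none at a start site.

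Peaks of all 3 replicate lists were then matched to the members. A peak of all 3 lists overlapped 51 of 123 pericentric members (41.5%, 32.7% to 50.7%) and 39 of 104 on chromosome 4 (37.5%, 28.2% to 47.5%), against 47.3% in the rest of the arms. Both intervals contain that value, and the chromosome 4 difference turned to 0.445 percentage points when summits within 100 bp were matched. All 22 optimal members were found in all 3, from which they had been called. The lists also differed in how many pericentric peaks they held, 135, 178 and 210, with the difference mostly among the weak ranks. Replicate 1 had 57 beyond rank 20000, replicate 2 had 90 and replicate 3 had 116. Depth is unknown, and its part in this was not tested.

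The dm3 lists of the same samples have separate Het scaffolds, which were counted in place of the pericentric ends. They need not hold the same sequence as those ends, which had 123 pooled peaks on dm6. The pooled dm3 list had 27 peaks on the Het scaffolds of 2L, 3L, 3R and X. Of these, 0 were among its 4625 optimal peaks, with a best rank of 7159. The replicate lists had 29, 42 and 57, again with 0 among the strongest 4625 and best ranks of 6202, 5944 and 5453. On chromosome 4 the pooled dm3 list had 15 optimal of 80 peaks (18.8%), against 16.1% on the 4 arms, and the replicates 14%, 13.1% and 13.2%, against 15.2%, 15.5% and 16.7%.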

How the data were processed

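Peak lists of 3 biological replicates were analysed. Per the labels, chromatin was sonicated to 200 to 800 bp. Per the deposited text notes, background calls are part of the pooled list and of each replicate's list, which fed IDR (irreproducible discovery rate), and the optimal list was thresholded by it. Caller and aligner are not given in the sources. The signal of each peak is the authors' deposited value on a scale that is not stated, and served only to rank peaks inside their list. A −log10 q-value was deposited with each peak and was not used. The lists give no read totals, so depth is unknown.

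The optimal list holds the 4900 strongest of 30000 pooled peaks, and each replicate's strongest 4900 stood in for it in that replicate. Genes came from Ensembl release 115 and sequence, with its soft-masking, from RefSeq Release 6, both in dm6 coordinates. A promoter summit lay within 500 bp of any start site. Either strand was searched for motifs up to 100 bp from the summit, and in all tiled windows of 201 bp. An overlap needed at least 1 shared bp, and a percentile is a rank within a replicate list. The values of the 3 replicates were compared by the exact two-sided sign-flip permutation test. Exact 95% binomial intervals (Clopper-Pearson) hold counting error alone, and neighbouring peaks are not independent. Members in the shared promoter of a gene pair count for both genes.

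Members, gene lists and motifs were chosen with earlier results of these data known. The rule named, for each arm end and chromosome 4, up to 8 optimal peaks, each with the closest start site of a protein-coding gene, or the strongest members where fewer than 3 were optimal, and per gene list up to 5 bound members and up to 3 unbound ones in alphabetical order. The remaining optimal peaks, the weaker summits named beside list genes, and the genes in a clause on neighbours were named after their values were seen. A total of 4 listed symbols were matched through RefSeq synonyms. Python 3.11.15, numpy 2.4.6, pandas 2.3.3, scipy 1.17.1 and matplotlib 3.10.9 were used, and the code was tested on simulated peaks.

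Alternatives were the edges moved by 0.5 Mb, repeated intervals merged, the stronger 2450 optimal peaks, other windows and overlap rules, unmasked bases, gene bodies, single start sites, each replicate alone and left out, and dm3.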

Additional observations from a re-analysis of the deposited data

How the results depend on the processing

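With 3 replicates no test here could pass a threshold, so the alternatives speak of direction and size only. No paired analysis was possible because there is 1 group. The differences from the rest of the arms in density and in bound genes kept their direction under every alternative run, though not their size. So did the pericentric differences in optimal share and GAGAG share, and with the edges farther out the GAGAG difference was 9.68 percentage points. For the pericentric masked share the pooled difference kept its direction, but over all pooled summits it was -1.95 percentage points. There the replicates had no common direction (exact sign-flip permutation test, p = 0.75). The chromosome 4 difference in optimal share turned to 1.49 percentage points among the stronger 2450 optimal peaks and to 2.62 on dm3. The pericentric promoter difference turned to -1.66 with a 100 bp window, -8.21 with a 1000 bp window and -8.60 among the stronger 2450. On chromosome 4 the GAGAG difference turned to 16.5 at promoter summits, and the masked difference to 4.55 over all pooled summits and to 1.06 in replicate 2 alone. The difference in overlap with all 3 replicate lists turned to 0.357 for both parts among optimal peaks, since all 22 were found, and to 0.445 on chromosome 4 with summits within 100 bp. The cause was not tested in the other cases. With a replicate left out, the chromosome 4 log2 density difference ranged from -1.17 to -0.959 and the pericentric promoter difference from 3.22 to 11.5 points. For the optimal share on dm3, Het scaffolds stood in for the pericentric ends and need not hold the same sequence. The density on dm3 was not run, because a dm3 genome was not used here. With the edges 0.5 Mb nearer the centromere no optimal peak is left, so the pericentric promoter, GAGAG and masked differences had no value.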
